A study of Mus musculus with 9 samples.

Results

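In sorted liver stroma, 281 of 19938 measured genes stood apart at postnatal day 5 (P5) from both an earlier and a later stage. A gene was taken when its 3 P5 arrays all lay above, or all below, every array of the embryonic stage E15.5 and of postnatal day 10 (P10), and when its P5 mean was at least 0.5 log2 from both other stage means; these genes are called members. Among the 166 genes that were higher at P5 the iron hormone hepcidin had the largest difference, and they included plasma protein, Cyp4a, sterol synthesis, mesothelial and biliary genes. Among the 115 genes that were lower the corticosteroid carrier Serpina6 had the largest difference, and they included genes of DNA replication and chromosome segregation. Values are log2 signals, on which 1 unit is a doubling, and signals of different genes are not compared.

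All samples were CD45-Ter119-Cxcl12-DsRed+ cells sorted from livers of C57BL/6 mice with one Cxcl12 allele carrying DsRed (Cxcl12DsRed/+), with 3 arrays each at E15.5, P5 and P10. Embryonic, P5 and P10 samples thus share the reporter allele, and no sample without it was compared. The design text calls the replicates independent, but no label says whether an array holds 1 animal or a pool, so the p-values rest on array-to-array spread alone, part of which may be technical. CXCL12 is the chemokine that keeps blood stem cells in their niche, and DsRed reports its promoter. The fetal liver is the main site of blood formation before birth, and after birth blood formation moves to the marrow while hepatocytes take up metabolic and secretory work. The genes described here are those whose P5 signal lay outside the range of both flanking stages.

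The labelled cell type was set against its markers. Cxcl12 read between 9.95 and 11.32 on all 9 arrays, and the CD45 gene Ptprc between 4.97 and 5.20. The list of 24 hepatic stellate cell genes had a mean of 9.75 to 9.93 at E15.5, 7.95 to 8.40 at P5 and 7.77 to 8.02 at P10. A list of 25 hepatocyte genes had a mean of 9.28 to 9.42 at E15.5, 11.89 to 12.04 at P5 and 12.03 to 12.15 at P10. Hepatocyte genes were thus detected in these sorted samples at every stage, Alb at 13.03 to 13.22 on all 9 arrays, and the list was level between P5 and P10 (median difference 0.00). The endothelial gene Pecam1 read 6.60, 7.30 and 7.47 on the P5 arrays and 6.32 to 6.82 on the others. In bulk samples fewer cells of a type and less RNA per cell cannot be told apart.

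The first promoters to show are those of Hamp, the gene with the highest difference, and of sterol and mitotic genes, from lists with several members. Each line gives 150 bases before the RefSeq start (GRCm38.p6, 5′ to 3′ on the gene's strand). In Hamp (chr7:30944030-30944179, minus strand) the capitals mark GGCGCC, the core of BMP response elements, and TTCNNNGAA, the STAT site. In Hmgcs1 (chr13:119690201-119690350, plus) they mark TCACNCCAC, a sterol response element core, and the CCAAT box. In Idi1 (chr13:8885456-8885605, plus), Lss (chr10:76531455-76531604, plus), Hmmr (chr11:40733438-40733587, minus) and Kif11 (chr19:37376232-37376381, plus) they mark the CCAAT box, which reads ATTGG when it lies on the other strand.
Hamp: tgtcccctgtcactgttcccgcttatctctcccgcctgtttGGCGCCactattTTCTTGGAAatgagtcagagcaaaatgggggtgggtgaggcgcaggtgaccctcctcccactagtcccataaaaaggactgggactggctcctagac
Hmgcs1: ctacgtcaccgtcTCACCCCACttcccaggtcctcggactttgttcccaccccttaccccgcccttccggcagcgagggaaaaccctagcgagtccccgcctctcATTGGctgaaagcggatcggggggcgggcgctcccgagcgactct
Idi1: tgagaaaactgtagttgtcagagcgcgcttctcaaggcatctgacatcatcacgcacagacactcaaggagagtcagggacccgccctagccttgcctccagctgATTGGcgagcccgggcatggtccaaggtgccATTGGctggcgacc
Lss: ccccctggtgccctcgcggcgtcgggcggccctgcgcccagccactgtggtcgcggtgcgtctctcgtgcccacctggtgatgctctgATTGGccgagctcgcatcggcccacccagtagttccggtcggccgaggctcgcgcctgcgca
Hmmr: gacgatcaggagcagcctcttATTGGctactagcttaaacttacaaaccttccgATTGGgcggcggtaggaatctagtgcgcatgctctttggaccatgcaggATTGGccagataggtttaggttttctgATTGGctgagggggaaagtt
Kif11: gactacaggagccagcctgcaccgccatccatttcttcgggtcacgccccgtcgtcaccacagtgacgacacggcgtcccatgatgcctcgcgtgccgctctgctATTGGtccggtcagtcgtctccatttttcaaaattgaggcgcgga

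Motifs were searched on both strands in the 250 bases before each start, for 222 of the 281 genes and 15563 of all genes with a RefSeq promoter. The CCAAT box was in 38.8% of all promoters, in 48 of 132 (36.4%) of the genes higher at P5 and in 41 of 90 (45.6%) of those lower. By list it was in 8 of 8 sterol members, 5 of 5 cell cycle members, 1 of 10 complement and acute phase members and 0 of 4 mesothelial members with a promoter. TTCNNNGAA was in 7.73% of all promoters, in 21 of 132 (15.9%) of the genes higher at P5 and in 9 of 90 of those lower. GGCGCC was in 2341 of all 15563 promoters, in 12 of 132 (9.09%) of the genes higher at P5 and in 21 of 90 (23.3%) of those lower. The sterol core TCACNCCAC was in 1.2% of all promoters and in 1 of the 8 sterol genes. Other motifs were searched in the same promoters. The interferon-stimulated response element was in 3.4% of all promoters, 2.27% of the genes higher at P5 and 2.22% of those lower. For the cell cycle homology region these were 15.7%, 16.7% and 20.0%, and for the PPAR response element 0.373%, 0.758% and 0.0%. The cell cycle region was in 2 of 5 cell cycle members with a promoter. The interferon element was in 0 of 3 antigen presentation members. The motifs were chosen with the genes known, and a match is no more than a run of letters.

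The stage contrast behind this pattern, P5 minus the average of E15.5 and P10, was called in limma's moderated test (adjusted p below 0.05) for 3316 genes, 16.6% of 19938, of which 1734 (8.7%) were higher and 1582 (7.93%) lower. Of the 281 genes apart at P5 (1.41% of all genes), 153 of the 166 higher (0.833% of all genes) and 113 of the 115 lower (0.577%) were among them, which follows in part from how they were chosen. The 3 P5 arrays lay outside the other 6 for 933 genes (4.68%), above them for 500 (2.51%) and below them for 433 (2.17%), so the distance of 0.5 log2 removed most of them. With array medians set equal, the rule took 141 higher and 146 lower genes, in place of 166 and 115. P5 array 3 weighed most on the number: without it, 501 genes met the rule, 311 of them lower. By size, 103 of the higher and 26 of the lower genes differed by 2-fold or more from the average of the other stages, and 27 and 1 by 4-fold or more. The median difference was 0.01 over all genes. Counts of members on the gene lists below are to be set beside 0.833% of all genes as higher and 0.577% as lower.

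**Figure D1:**
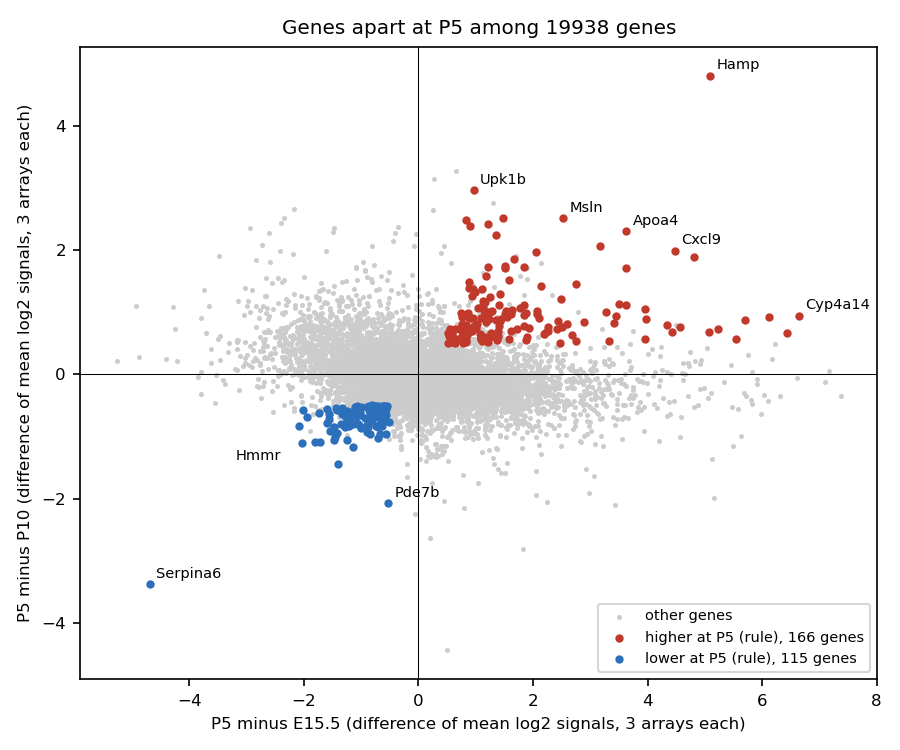
Each point is a gene, with the difference of mean log2 signal between P5 and E15.5 on the x axis and between P5 and P10 on the y axis (3 arrays each). Red points are the 166 genes higher at P5 and blue points the 115 lower, Hamp lies far out on both axes among the red points, and Serpina6 among the blue.

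Hepcidin (Hamp), the liver peptide that stops iron export from gut and macrophages, had the largest difference of all 281 genes. Hamp read 6.51, 6.35 and 7.83 at E15.5, 11.72, 12.23 and 12.02 at P5, and 5.73, 7.33 and 8.49 at P10. All 3 P5 arrays were high and the flanking stages overlapped each other. Hamp was 34.1-fold above E15.5 and 27.9-fold above P10, and the difference from their average was 4.95 ± 0.57 (SE, limma adjusted p = 0.000675). When both stages had to differ, the adjusted p was 0.0628, over the threshold, with SDs of 0.81 at E15.5 and 1.39 at P10. P10 minus E15.5 was 0.29 ± 0.66 (adjusted p = 0.782). The rule set no limit on this difference but did use the E15.5 and P10 arrays.

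Other genes tied to iron and to BMP signalling were among those higher at P5, and no iron list was counted. Hepcidin transcription is known to be driven by BMP ligands through SMAD proteins, with transferrin receptor 2 as one of its sensors. Id1, a BMP target that blocks helix-loop-helix factors, read 9.02, 8.93 and 8.20 at E15.5, 9.13, 10.35 and 10.20 at P5, and 7.81, 8.87 and 8.24 at P10. P5 array 1 was 1.07 below the other P5 arrays and just above the highest E15.5 array. The difference of Id1 from the average was 1.38 ± 0.34 (adjusted p = 0.0256), and without P5 array 2 it was 1.15 (adjusted p = 0.101). Smad9, a BMP-activated SMAD, differed by 0.83, Tfr2 by 0.71 and Id2 by 1.08. The ferroxidase ceruloplasmin (Cp) read 7.16, 6.69 and 8.0 at E15.5, 11.21, 11.35 and 11.16 at P5, and 10.30, 10.05 and 10.22 at P10.

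The TGF-beta and BMP list held 39 measured genes. Of these, 5 were among the 281 (Inhbe, Id1, Id2, Inhba and Smad9), all higher, against 0.833% of all genes. The list's median difference was 0.04. In the average contrast 9 of its genes were called higher and 8 lower, against 8.7% and 7.93% of all genes. Inhbe and Inhba, which encode activin subunits, differed by 1.42 and 1.03. The ligands Bmp5, Bmp10 and Gdf2 were lower at P5 than the average by 1.77, 1.32 and 1.09, while P5 minus P10 was -0.16, -0.11 and 0.54. Bmp2 was -0.65 against E15.5 and 0.61 against P10, and Bmp6 was 0.26 and 0.01. No ligand of the list other than the activin subunits stood apart at P5.

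Plasma proteins of the acute phase and of complement held more members than any other list. The acute phase response is the set of proteins that hepatocytes release in injury and infection, many of them under STAT3. The list's median difference was 0.75 against 0.01 for all genes. Of 32 measured genes on the list, 12 were members, all higher, against 0.833% of all genes. Beside Hamp these were Serpina3n, Cp, Apcs, C4b, Itih4, Crp, C1s1, Cfb, Hc, C1ra and Itih3. Leaving out 1 array at a time gave 10 to 15 members on this list. The mean of the hepatocyte list was also lower at E15.5 (9.28 to 9.42) than at P5 (11.89 to 12.04) and P10 (12.03 to 12.15), and its part in the values of liver plasma protein and enzyme genes was not tested.

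Several of these genes were far below P5 at E15.5 and only a little below it at P10. Serpina3n, a protease inhibitor, read 5.76, 6.39 and 5.78 at E15.5, 11.56, 11.36 and 11.62 at P5, and 11.10, 10.74 and 10.97 at P10. Its P5 arrays lay above P10 by a mean of 0.57 and above E15.5 by 5.54. The C5 gene Hc, in contrast, had near equal gaps of 0.75 and 0.76. Cfb, a factor of the alternative complement pathway, was 0.76 above E15.5 and 0.92 above P10. The list mean was 9.31 to 9.44 on P5 arrays, and 9.29 on P10 array 1 against 8.68 and 8.87 on the other P10 arrays, so P10 array 1 lay near P5. The serum amyloid genes of the list, Saa1, Saa2, Saa3 and Saa4, were not members, and Saa1 was 0.43 above E15.5 and -0.60 against P10.

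Lbp, which binds bacterial lipopolysaccharide and hands it to CD14, was called against both stages. Its arrays read 9.84, 9.92 and 9.69 at E15.5, 10.73, 11.12 and 11.01 at P5, and 10.15, 9.99 and 9.96 at P10. E15.5 and P10 did not overlap with P5, and the both-stages adjusted p was 0.0441. Itih1, a hyaluronan-binding plasma protein, was also called (difference 1.48 ± 0.11, both-stages adjusted p = 0.0346). The interleukin-1 antagonist Il1rn and the receptor chain Il1rap differed by 1.17 and 1.22.

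Several members encode coagulation and kinin proteins, for which no list was counted. Prothrombin (F2) differed by 0.84, F5 by 0.81, F12 by 0.83, plasminogen (Plg) by 0.57, Kng1 by 0.59, Kng2 by 1.42, Apoh by 0.85 and vitronectin (Vtn) by 0.63. Histidine-rich glycoprotein (Hrg) was a large exception: it read 5.78, 5.24 and 5.53 at E15.5, 11.94, 11.89 and 12.04 at P5, and 11.41, 11.33 and 11.14 at P10. For Hrg nearly the whole contrast came from the fetal side, with P5 above P10 by only 0.66. Angiotensinogen (Agt), the precursor of angiotensin, stood 2.06 above E15.5 and 0.97 above P10.

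Hormone carriers were found on both sides. Serpina7, the thyroxine-binding globulin, read 6.51, 6.05 and 6.27 at E15.5, 10.19, 9.32 and 10.22 at P5, and 8.26, 7.79 and 8.56 at P10. Serpina6, the corticosteroid-binding globulin, read 12.88, 12.82 and 12.86 at E15.5, 8.99, 6.38 and 9.12 at P5, and 11.87, 11.15 and 11.59 at P10. These are related serpins, and P5 was the highest stage for one and the lowest for the other. Serpina7 was 12.4-fold above E15.5 and 3.27-fold above P10 (both-stages adjusted p = 0.118). Serpina6 was 25.8-fold below E15.5 and 10.4-fold below P10 (both-stages adjusted p = 0.173), and P5 array 2 was 2.61 below the next P5 array. Without that array the difference of Serpina6 was -3.14 in place of -4.03 ± 0.55, still the lowest of the 281 genes.

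**Figure D2:**
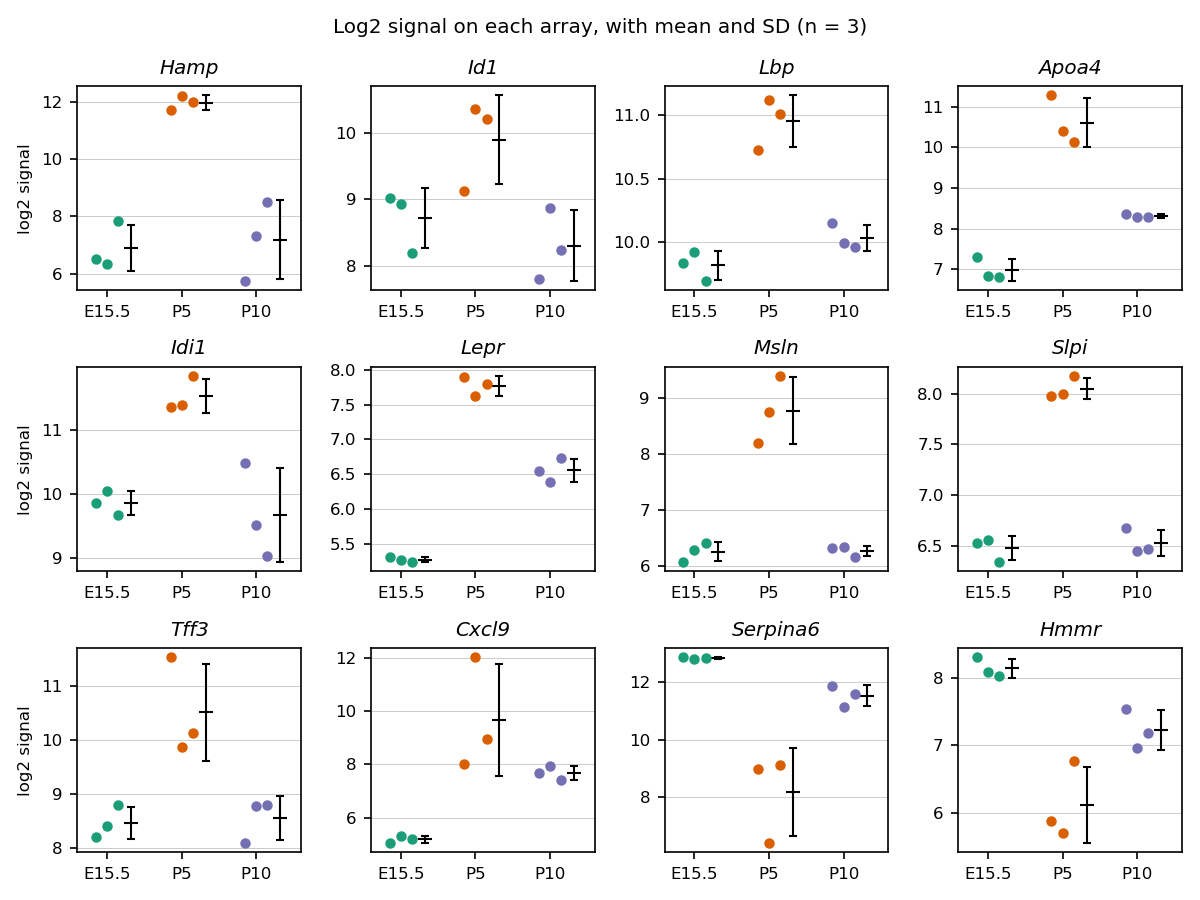
Log2 signal of 12 genes on each of the 9 arrays, with 3 points per stage and, beside them, the mean and SD (n = 3). Axes differ between panels and do not start at 0. The 3 P5 points lie outside all others in every panel, as the rule that chose the genes required. Cxcl9 has 1 far higher P5 array, and Id1 and Serpina6 each have 1 P5 array well below the others.

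Members of lipid metabolism included Cyp4a genes. Cyp4a enzymes oxidise the last carbon of fatty acids and are classic targets of the fatty acid receptor PPARalpha. Cyp4a14 read 4.53, 5.17 and 4.83 at E15.5, 11.50, 11.40 and 11.54 at P5, and 10.29, 10.60 and 10.73 at P10. Cyp4a10 was 3.50 above E15.5 and 1.13 above P10 and was called against both stages (adjusted p = 0.0326), and Cyp4a31 was 4.35 and 0.79 above them. Of 28 genes of fatty acid oxidation and ketogenesis, 3 were members, all higher, against 0.833% of all genes. The list median of P5 minus P10, however, was -0.09. P5 thus lay near P10 in the list median and above it in these Cyp4a genes.

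Single members of lipid transport are described without a list of their own. Of the 32 genes of fatty acid synthesis and lipid storage, 1 was a member, and the list median was 0.12. Apoa4, an apolipoprotein of gut and suckling liver, read 7.30, 6.84 and 6.80 at E15.5, 11.29, 10.41 and 10.14 at P5, and 8.36, 8.29 and 8.28 at P10. All 3 P5 arrays were well above P10, which was above E15.5. Apoa4 was 12.4-fold above E15.5 and 4.92-fold above P10 (both-stages adjusted p = 0.04). Apoa5, an activator of lipoprotein lipase, differed by 2.44, the fatty acid transporter Slc27a2 by 1.11 and Fabp4 by 1.64. The phosphatidylcholine transporters Pctp and Abcb4 differed by 2.26 and 1.00. Slc10a1, the bile acid uptake carrier of hepatocytes, read 6.99, 6.51 and 7.26 at E15.5, 11.44, 11.32 and 11.68 at P5, and 10.98, 10.62 and 10.55 at P10.

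In the sterol synthesis list P5 stood about as far from E15.5 as from P10. Cells make cholesterol from acetyl-CoA through mevalonate and isoprenoids, under the transcription factor SREBP2. Of 23 measured genes of cholesterol synthesis and uptake, 8 were members, all higher, and the list median was 0.77 against the average, 0.74 against E15.5 and 0.83 against P10. In pathway order these were Hmgcs1, which makes HMG-CoA, Pmvk and Mvd of the mevalonate branch, Idi1, which makes the isoprenoid for the next step, and Lss, Nsdhl and Hsd17b7 of the sterol steps. Insig1, the sterol-sensing protein that holds SREBP in the endoplasmic reticulum, was the eighth. Leaving out 1 array at a time gave 8 or 9 members.

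Idi1 read 9.85, 10.04 and 9.66 at E15.5, 11.36, 11.39 and 11.83 at P5, and 10.47, 9.52 and 9.02 at P10. Its P10 arrays spread over more than its E15.5 arrays, and array 1 of P10 was the highest of them. The same array was the highest P10 array of Nsdhl (9.98 against 9.02 and 8.48) and of Insig1 (9.95 against 8.98 and 8.44). Idi1 was 3.19-fold above E15.5 and 3.62-fold above P10 (difference 1.76 ± 0.28, both-stages adjusted p = 0.19). None of the 23 genes was called against both stages. For Hmgcs1 the adjusted p of the average contrast was 0.0522 to 0.0585 when any 1 P5 array was left out, and for Insig1 it was 0.0596 without P5 array 3.

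Other enzymes of the pathway had P5 means above P10 and below E15.5. Sqle was 2.06 above P10 and -0.80 against E15.5, Msmo1 was 2.27 and -0.41, and Cyp51 was 1.77 and -0.78. The sterol exporters Abcg5 and Abcg8 went the other way, being 2.83 and 2.31 above E15.5 and 1.06 and 0.82 below P10 (P5 minus P10 of -1.06 and -0.82). The regulator Srebf2 itself differed by 0.12.

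3 members that encode steroid-converting enzymes are named after their values were seen, with no list counted. Akr1c18, which inactivates progesterone, read 5.81, 5.20 and 5.36 at E15.5, 11.58, 11.55 and 11.64 at P5, and 10.56, 10.77 and 10.66 at P10. Hsd17b6, an oxidoreductase of androgens and retinoids, was 5.70 above E15.5 and 0.88 above P10. Hsd3b5, a ketosteroid reductase of mouse liver, was 2.75 and 1.45 above. These 3 genes were more than 4-fold above the average of the other stages, with the larger gap on the fetal side.

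IGF-binding proteins hold insulin-like growth factors in the blood and in tissue, and 4 of the 18 genes of the IGF and growth hormone list were members, all of them binding proteins. Igfbp2 read 6.88, 6.98 and 7.29 at E15.5, 12.35, 12.13 and 12.38 at P5, and 11.57, 11.39 and 11.70 at P10, and Igfbp1 was 2.42 above E15.5 and 0.73 above P10. Igfbp5 and Igfbp6 had the larger gap on the P10 side, at 2.39 and 1.75 above P10 and 0.91 and 1.5 above E15.5. Igfbp3 lay below the average by 1.41 and was not a member, and Igf1 and Igf2 differed by 0.08 and 0.13.

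The leptin receptor gene Lepr read 5.31, 5.27 and 5.24 at E15.5, 7.89, 7.62 and 7.79 at P5, and 6.54, 6.39 and 6.73 at P10. The 3 stages did not overlap, with P10 between the other stages. Lepr was 2.32-fold above P10 (both-stages adjusted p = 0.0105). No background call per probe set was used here, so a fold over a low signal, such as that of Lepr at E15.5, may understate the difference. In bone marrow Lepr marks the CXCL12-rich stroma, and in liver it is also made by hepatocytes. Its source here was not tested.

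Genes of the mesothelium, the cell layer that covers the liver, formed a group with flanking stages of another order. Of 25 measured mesothelial genes, 7 were members, all higher (Msln, Upk1b, Upk3b, Gpm6a, Krt19, Slpi and Lrrn4), and the list mean was 7.65 to 7.77 at E15.5, 8.09 to 8.33 at P5 and 6.89 to 7.01 at P10. Msln, the mesothelial surface protein mesothelin, read 6.08, 6.29 and 6.42 at E15.5, 8.20, 8.75 and 9.40 at P5, and 6.32, 6.34 and 6.17 at P10. Upk1b, a uroplakin, read 7.64, 7.70 and 7.96 at E15.5, 8.48, 8.86 and 8.87 at P5, and 5.76, 5.90 and 5.65 at P10. Msln was level between E15.5 and P10 (P10 minus E15.5 of 0.02), whereas Upk1b was 2.00 lower at P10 than at E15.5 (adjusted p = 5.45e-06). Msln was called against both stages (difference 2.52 ± 0.22, adjusted p = 0.0326). Other mesothelial genes were not members: Wt1 was -0.97 against E15.5 and 1.24 against P10, and Muc16 was 1.31 and 2.76.

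Slpi, an antiprotease of epithelia and of the mesothelial list, gave one of the smallest both-stages p-values. It read 6.52, 6.56 and 6.34 at E15.5, 7.98, 8.0 and 8.17 at P5, and 6.68, 6.44 and 6.46 at P10. The P5 arrays lay close together and E15.5 and P10 overlapped. Slpi was 2.98-fold above E15.5 and 2.87-fold above P10 (both-stages adjusted p = 0.00315).

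The biliary list had equal medians against both stages. Of its 14 measured genes, 5 were members, all higher (Tff3, Krt19, Sox9, Cldn7 and Cldn6), and the list median was 0.50 against each of E15.5 and P10. Sox9, the transcription factor of bile duct precursors, read 7.67, 7.20 and 7.40 at E15.5, 9.50, 9.31 and 9.01 at P5, and 8.29, 8.34 and 8.34 at P10. Tff3, a secreted trefoil peptide, read 8.21, 8.40 and 8.80 at E15.5, 11.54, 9.87 and 10.14 at P5, and 8.09, 8.78 and 8.80 at P10. P5 array 1 was 1.40 above the next P5 array for Tff3, and the difference without it was 1.49 in place of 2.00 ± 0.36. The tight-junction gene Cldn15 was called against both stages (difference 0.62 ± 0.05, adjusted p = 0.0209), and Cldn1 differed by 1.08.

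Genes of portal fibroblasts were also among the members. Of 16 portal fibroblast genes, 3 were members, all higher (Dpt, Mfap5 and Eln), against 0.833% of all genes. Of 35 measured genes of fibrillar collagen and matrix, 1 was a member, and that list's median difference was -0.27. Dermatopontin (Dpt) read 7.98, 5.34 and 8.80 at E15.5, 10.88, 10.71 and 10.02 at P5, and 7.89, 8.73 and 8.80 at P10. E15.5 array 2 was far below the other E15.5 arrays, and the adjusted p of 0.0317 for the average contrast went above 0.05 when any P5 or P10 array was left out (0.0517 to 0.104). Elastin (Eln) differed by 0.92 ± 0.10 with both-stages adjusted p of 0.0632. Cav1, the caveolar coat protein of endothelium and fibroblasts, was 1.47 above E15.5 and 2.51 above P10. The 30 sinusoidal endothelial genes had list means of 7.21 to 7.35 at E15.5, 6.86, 7.83 and 8.07 on P5 arrays 1, 2 and 3, and 6.88 to 7.34 at P10. None of the 30 was a member, and without P5 array 1, which lay below every other array, 17 met the rule as higher. Whether endothelial RNA took part in these values was not tested.

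**Figure D3:**
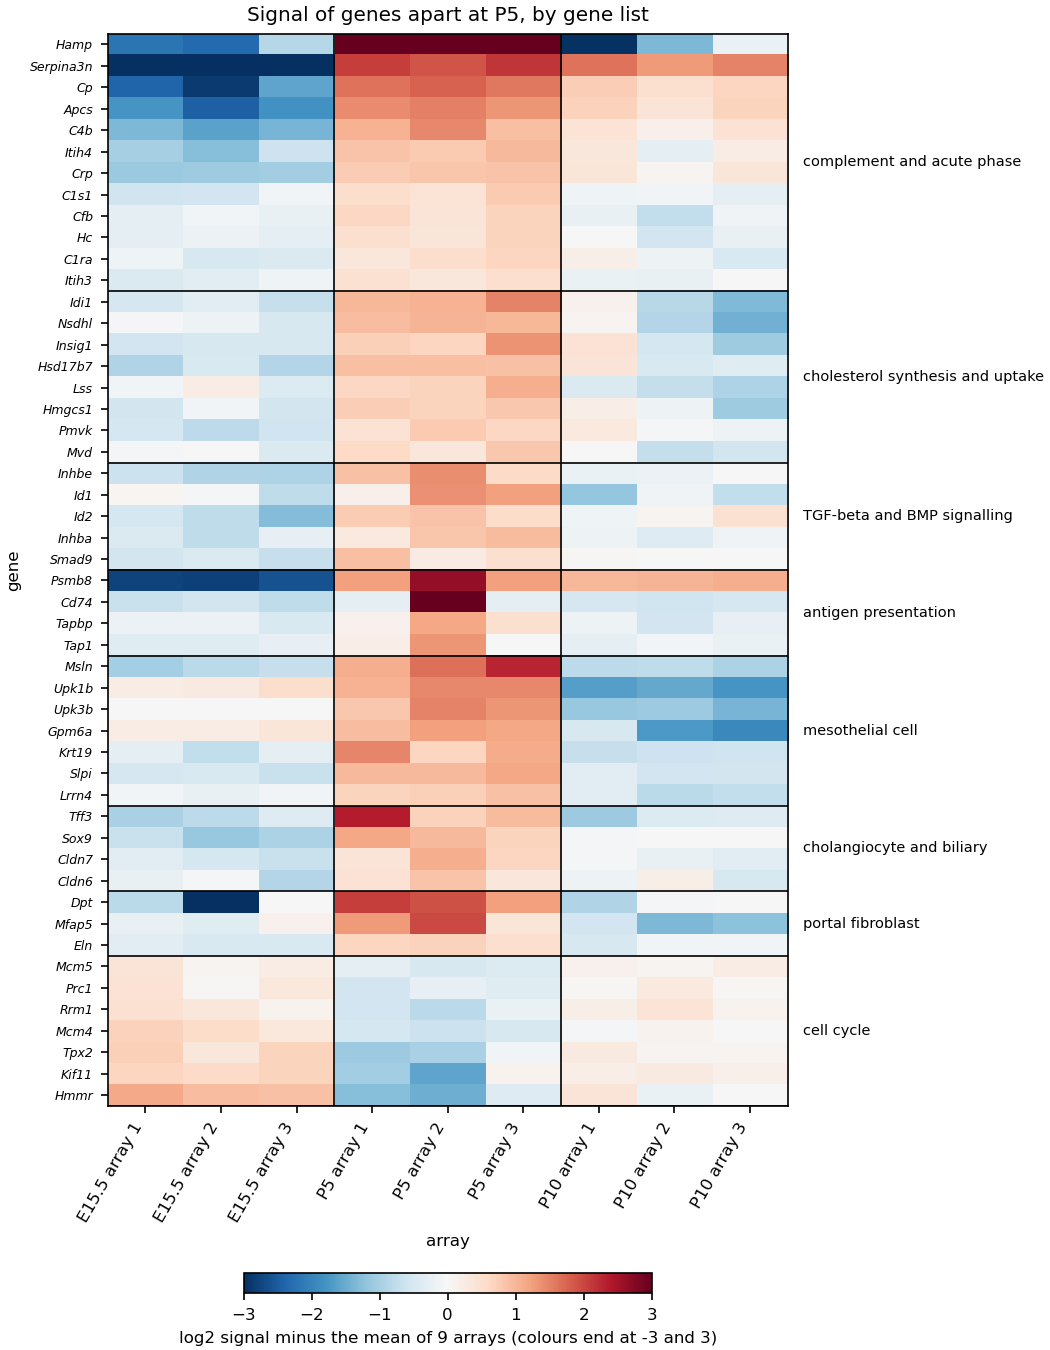
Log2 signal of 50 genes apart at P5 minus each gene's mean over 9 arrays, by array in columns and by gene list in rows; colours end at -3 and 3. The genes higher at P5 are redder at P5 than at both flanks. P10 is also above the gene's mean where the gap was mainly to E15.5, as for Serpina3n and Psmb8. P5 array 2 alone is dark for Cd74. Of the cell cycle rows, blue or pale at P5, those of Tpx2, Kif11 and Hmmr are palest on P5 array 3.

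P5 array 2 was the highest P5 array for several genes of antigen presentation. These genes cut, move and display peptides on MHC molecules. Psmb8, a subunit of the immunoproteasome, read 6.28, 6.26 and 6.45 at E15.5, 10.29, 11.69 and 10.30 at P5, and 10.04, 10.07 and 10.15 at P10. Cd74, the MHC class II chaperone, read 5.05, 5.17 and 4.96 at E15.5, 5.41, 9.84 and 5.46 at P5, and 5.22, 5.11 and 5.22 at P10. Array 2 alone made Cd74 large: its difference was 1.78 with that array and 0.31 without it. The chemokine Cxcl9 read 8.01, 12.03 and 8.96 at P5, and its difference was 3.24 with array 2 and 2.06 without it. For the ubiquitin-like Ubd these were 3.36 and 2.42, so both stayed more than 4-fold above the average without it.

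The number of members on the list depended on that array. Of 17 antigen presentation genes, 4 were members (Psmb8, Cd74, Tapbp and Tap1), and without P5 array 2 the number was 1. The list mean was 9.12 on that array, 7.48 and 7.44 on the other P5 arrays and 7.34 to 7.38 at P10. The list median was 0.75 with array 2 and 0.17 without it. None of the 34 interferon response genes was a member, and their mean was 8.32 on P5 array 2 against 7.10 and 7.27. The macrophage list, which contains Ptprc, had a mean of 5.42, 5.48 and 5.34 on the P5 arrays and 5.28 to 5.44 on all others.

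Other members had a far higher signal on P5 array 3. Granzyme A (Gzma), a protease of cytotoxic lymphocytes, read 4.58, 4.57 and 4.44 at E15.5, 4.62, 4.60 and 6.65 at P5, and 4.58, 4.58 and 4.49 at P10. The chemokine Xcl1 read 6.57, 6.29 and 8.20 at P5, and Ccl5 read 6.35, 6.97 and 8.47. Without array 3 the differences were 0.07 for Gzma, 0.18 for Xcl1 and 0.52 for Ccl5, in place of 0.75, 0.77 and 1.12. The 25 lymphocyte genes together had a mean of 5.35, 5.28 and 5.30 on the P5 arrays and 5.20 to 5.28 on the rest. In all, 20 members had 1 P5 array more than 1 log2 from the other P5 arrays: 9 of them on array 2, 9 on array 3 and 2 on array 1.

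Among the genes lower at P5, the cell cycle list held the most members. Of 45 measured cell cycle genes, 7 were members, all lower (Hmmr, Kif11, Tpx2, Mcm4, Rrm1, Prc1 and Mcm5), against 0.577% of all genes. The list median was -0.53 against 0.01 for all genes. Hmmr, a spindle protein, read 8.31, 8.09 and 8.03 at E15.5, 5.88, 5.70 and 6.76 at P5, and 7.54, 6.95 and 7.17 at P10. Kif11, the kinesin that pushes spindle poles apart, read 9.21, 9.14 and 9.22 at E15.5, 7.52, 6.99 and 8.66 at P5, and 8.76, 8.82 and 8.72 at P10. In both genes P5 array 3 was the highest P5 array and lay near P10. Hmmr was 4.08-fold below E15.5 and 2.16-fold below P10, and for Kif11 these were 2.77-fold and 2.07-fold. Without P5 array 3, 18 of the 45 genes met the rule. The list mean was 8.50, 8.36 and 8.78 on the P5 arrays, 8.93 to 9.06 at P10 and 9.13 to 9.35 at E15.5.

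Replication and repair genes were also among the lower members. Wdhd1, which joins helicase and polymerase at the fork, read 9.21, 8.99 and 9.08 at E15.5, 6.89, 6.88 and 7.23 at P5, and 7.90, 7.90 and 7.67 at P10 (difference -1.46 ± 0.10, both-stages adjusted p = 0.0628). Fignl1, a recombination factor, differed by -1.45, Fam111a by -1.31 and the checkpoint kinase Chek1 by -1.24. The replicative licensing genes Mcm4 and Mcm5 differed by -0.82 and -0.57, and the ribonucleotide reductase subunit Rrm1 by -0.79. The primase subunits Prim1 and Prim2 and the polymerase Pole differed by -0.82, -0.91 and -0.84. Chek1 lost its call in the average contrast without P5 array 1 (adjusted p = 0.0582).

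The condensin complex, which folds mitotic chromosomes, had several subunits among the lower genes. Ncaph read 8.96, 8.75 and 8.80 at E15.5, 6.71, 6.94 and 7.73 at P5, and 8.21, 8.21 and 8.21 at P10, and differed by -1.40 ± 0.19. Smc4, Smc2, Ncapg and Ncapd3 differed by -1.07, -0.98, -1.10 and -0.89. The histone genes H2ac4 and H1f5 differed by -1.42 and -0.60, the only 2 members among 14 measured replication-dependent histones. Histone messages of this class lack a poly(A) tail.

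Other lower genes were not of the cell cycle. Pde7b, a cyclic AMP phosphodiesterase, read 6.90, 6.97 and 6.96 at E15.5, 6.58, 6.03 and 6.62 at P5, and 8.77, 8.28 and 8.39 at P10, so its large gap was on the P10 side. Wsb1, a substrate receptor of ubiquitin ligases, read 10.09, 10.17 and 10.12 at E15.5, 8.16, 8.14 and 8.04 at P5, and 8.73, 8.73 and 8.59 at P10. Fndc10 read 8.38, 8.51 and 8.34 at E15.5, 7.0, 7.26 and 7.21 at P5, and 8.43, 7.99 and 8.22 at P10. Wsb1 and Fndc10 were the only lower genes called against both stages (adjusted p = 0.0346 for each). The transcription factor Myc differed by -0.84 and the insulin receptor substrate Irs1 by -0.72. The other probe set of Irs1 differed by -0.11.

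The test that P5 differs from each of the other stages in the same direction was strict. It takes the larger p of the comparisons with E15.5 and with P10 and adjusts it over all 19938 genes. The rule used the same arrays, so an overlap of these calls with the 281 follows in part from how the genes were chosen. It called 15 genes (0.0752% of all), all among the 281: 13 higher (0.0652% of all: Apoa4, Msln, Cyp4a10, Lepr, Abca8a, Igfbp6, Slpi, Gm16551, Itih1, Fxyd3, Tes, Lbp and Cldn15) and 2 lower (0.01%: Wsb1 and Fndc10). Of these, Slpi and Gm16551 were called in all 9 fits that left out 1 array, and Tes in none. The number of genes called was 2 to 4 without any 1 array of E15.5 or P10, and 32, 7 and 48 without P5 arrays 1, 2 and 3, with 33 of the 48 lower. Gm16551, a predicted gene, read 6.4 to 6.43 at E15.5, 8.53, 8.43 and 8.63 at P5, and 7.63 on every P10 array.

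When each comparison was adjusted by itself, a setting added after the data were seen, 205 genes (1.03%) passed both in the same direction, and 140 of the 281 were among them. Of all genes 114 passed as higher (0.572%) and 91 as lower (0.456%), and of the 281 these were 88 and 52. The larger unadjusted p was under 0.05 for 802 genes (4.02%) and for 271 of the 281. Both comparisons share the P5 arrays, so they are not independent. The rule used the same arrays, so these overlaps with the 281 follow in large part from how the genes were chosen.

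The flanking stages were compared for these genes in P10 minus E15.5, whose difference does not use the P5 arrays. The rule did use the E15.5 and P10 arrays, so the counts for members are not independent of how they were chosen. Over all genes this contrast was called for 7716 (38.7%), 3998 higher (20.1%) and 3718 lower (18.6%). Of the 166 genes higher at P5, 70 (42.2%) were called higher at P10 than at E15.5, 7 (4.22%) lower, and 89 (53.6%) were not called. Of the 115 lower at P5, 33 (28.7%) were called lower at P10, 1 (0.87%) higher, and 81 (70.4%) were not called. For most genes higher at P5 the P5 mean was nearer to P10 than to E15.5 (131 of 166), and likewise for the lower genes (96 of 115). The same count was not made over all genes, so nearness to P10 cannot be read as particular to the members. With arrays centred on ribosomal protein genes, 79 of the 281 were called higher at P10 and 26 lower, in place of 71 and 40. The median gap was 1.24 to E15.5 and 0.81 to P10 for the higher genes, and -0.89 and -0.64 for the lower.

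**Figure D4:**
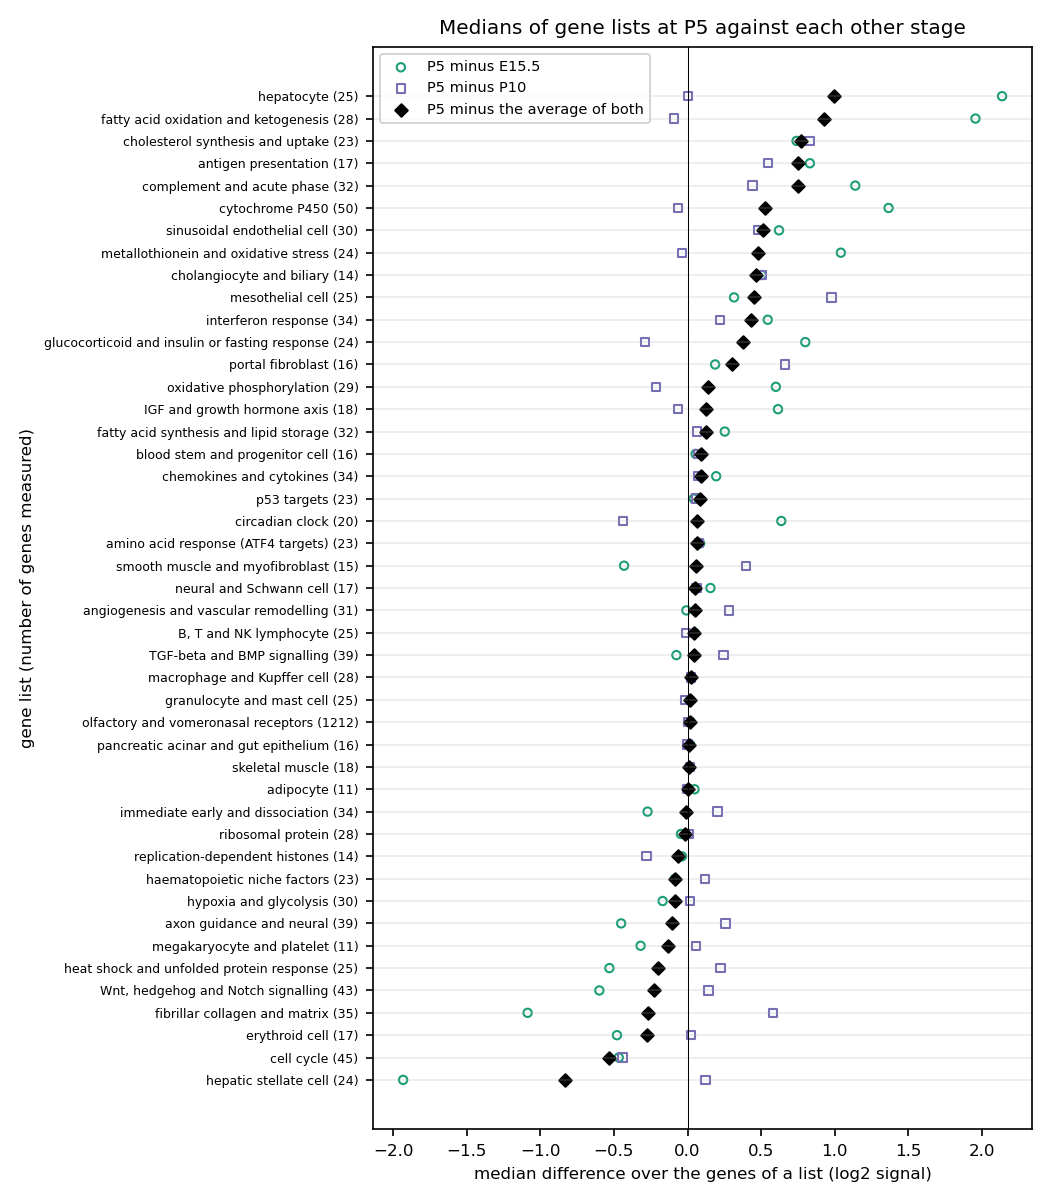
Median difference in log2 signal over the genes of each of 45 gene lists, for P5 minus E15.5 (circles), P5 minus P10 (squares) and P5 minus their average (diamonds), with the number of measured genes in brackets. In the cholesterol, biliary and mesothelial lists circle and square lie on the same side of 0, in the cell cycle list both lie below 0, and in the hepatocyte list the square lies at 0.

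The distance of 0.5 log2 separated close neighbours. Just inside it were Rad51ap1, Usp45 and Fam120c, all lower, with distances to the nearer stage mean of 0.5, 0.506 and 0.506. Just outside were Vnn1 and Prss12, both higher, and Tbck, lower, at 0.499, 0.499 and 0.497. Vnn1 read 7.15, 6.87 and 7.56 at P5 against 6.84, 6.53 and 6.71 at P10. Its paralogue Vnn3, inside the rule, read 10.05, 10.58 and 10.14 at P5 against 9.55, 9.60 and 9.59 at P10. Other probe sets existed for 10 of the 281 genes, 29 in all, most of them of Ltn1 and Cep350. Of these 29, 28 differed in the same direction, the exception being that of Mid1ip1. Some differed far less than the probe set used, as for Irs1 (-0.11 against -0.72). Others differed about as much, as for Idi1 (1.73 against 1.76).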

How the data were processed

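The authors deposited log2 signals of 35556 probe sets on 9 Affymetrix arrays, made by robust multi-array averaging (RMA) per the submitters' processing notes, which list Transcriptome Analysis Console 2.0 and Expression Console among the Affymetrix programs. RMA quantile-normalises arrays, so a shift of all genes cannot be seen. Array medians were 6.22 to 6.45. Raw array files were not used here, and the number of arrays limits the precision.

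Per the platform annotation 21789 probe sets had 1 gene symbol, 1621 several, and 12146 were not listed. Symbols of 21698 were looked up by Entrez identifier and set to the RefSeq symbol, whether or not it differed. The probe set with the highest mean over 9 arrays stood for each of 19938 genes.

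With stage as the sole term, limma 3.58.1 (R 4.3.3) was run on the 9 arrays together, after a test on simulated data. Residual degrees of freedom were 6 and the prior added 2.22. The Benjamini-Hochberg adjustment took in all genes. Every adjusted p is from these limma fits. Errors of differences are model SEs and other errors are SDs over 3 arrays. Alternatives were other scalings, filters on dim genes, variance models, a sex term, a replicate block, other distances and leaving out each array.

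The members and the 46 gene lists were chosen with earlier results of these data known. Genes named are the 15 highest and 15 lowest members without predicted genes, up to 8 members per list, the 3 nearest either side of 0.5 log2, and Cxcl12, Ptprc, Alb and Pecam1. Others, among them all genes called against both stages, were named after their values were seen. Not every named gene of the rule is printed. Promoters are from RefSeq (GRCm38.p6).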

Additional observations from a re-analysis of the deposited data

Results flagged for a closer look

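Probe sets outside the gene comparisons also stood apart at P5. Of 13767 probe sets with no listed symbol or with several, 100 (0.726%) met the same rule, 36 higher and 64 lower, against 1.41% of the named genes. They were noted because no comparison used them, and which transcripts they measure was not tested.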

How the results depend on the processing

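The average contrast was called for 2549 to 3453 genes when 1 array was left out and stayed within 1.5 times of 3316 under every alternative run. Of 101 genes named by the rule, no alternative reversed one, 40 combinations of gene and setting lost a call and 8 gained one. The both-stages test moved most: against 15 genes it called 30 above the 30th percentile of signal, 37 above the median, 25 with a trended robust variance and 205 with each comparison adjusted by itself, and 2 to 48 when 1 array was left out. The filters on signal kept a gene by its highest stage mean, so a gene high only at P5 passed through its P5 arrays. Fewer genes were tested under these filters, and the cause of the change was not tested for any setting. Arrays with the same replicate number did not deviate together (residual r -0.079 to 0.069), so the numbers do not pair them. With a replicate block the both-stages test called 7 genes, 5 of them among the 15, and the other counts moved by less than 1.5 times. The rule took 51 genes at a distance of 1 log2, 606 at 0.25 log2, and 285 to 501 with 1 array left out, between 236 and 280 of them from the 281. A sex term, inferred for each array from the signal of the Y-linked gene Eif2s3y, kept 10 of the 15 genes. No scaling moved the median of all genes by over 0.1 log2.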

Other observations

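Families of genes by symbol, picked after the members were seen, held several members each; over all genes 0.833% were members as higher and 0.577% as lower. Of 28 measured claudins, which seal tight junctions, 4 were higher at P5 (Cldn1, Cldn6, Cldn7 and Cldn15), while the median of all claudins differed by 0.07. Of 11 genes named Hsd17b, which reduce or oxidise steroids and sterols, 4 were higher (Hsd17b6, Hsd17b7, Hsd17b11 and Hsd17b13), with a family median of 0.82. Of 5 inter-alpha-trypsin inhibitor heavy chains, which bind hyaluronan, Itih1, Itih3 and Itih4 were higher.

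On the lower side, 6 of 13 condensin and other SMC genes were members and 11 of the 13 were called lower in limma's average contrast, against 7.93% of all genes. The family median was -1.28 against E15.5 and -0.46 against P10. Of 20 genes named Nup, which build nuclear pores, Nup93, Nup133 and Nup205 were members. Of 347 zinc finger genes named Zfp, 7 were members, all lower (0.577% over all genes), and the family median was -0.09. Of 55 ubiquitin-specific peptidases, Usp14, Usp34 and Usp45 were members, all lower.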
